A study of Mus musculus with 5 samples.

Results

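The imprinted growth control genes examined here were *H19*, *Igf2*, *Dlk1*, *Meg3*, *Rian*, *Peg3*, *Cdkn1c*, *Mest*, *Plagl1*, and *Grb10*. They were chosen by name, as the rows of the count table whose Ensembl gene identifier carries 1 of these mouse symbols, and all 10 were found among the 20224 genes of the table. The measurements are bulk RNA-seq counts from sympathetic neurons of mouse embryos at E14.5, with 100 sorted cells in each of 5 libraries. They address how the loss of *Hif1a*, which encodes the oxygen-sensitive subunit of the transcription factor HIF-1, changes gene expression in developing sympathetic neurons.

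Imprinted genes are expressed mainly from the allele of 1 parent, and many of them control how much an embryo, placenta, or tissue grows. They lie in clusters in which a protein-coding gene and a non-coding RNA gene often share a control region that is methylated on 1 parental allele. *Igf2*, *Dlk1*, *Peg3*, *Mest*, and *Plagl1* are expressed from the paternal allele in most embryonic tissues, *H19*, *Meg3*, *Rian*, and *Cdkn1c* from the maternal allele, and *Grb10* from the maternal allele in most tissues but from the paternal allele in neurons. The counts pool both parental alleles, so allelic origin was not measured.

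The 2 control libraries (replicates 5 and 6) came from embryos of the genotype *Hif1a* loxP/+; Isl1Cre; tdTomatoAi14, and the 3 *Hif1aCKO* libraries (replicates 3, 4, and 5) from embryos of the genotype *Hif1a* loxP/loxP; Isl1Cre; tdTomatoAi14. Both groups also carried the Prph-eGFP transgene, and both came from non-diabetic pregnancies. The controls thus carried Cre and 1 floxed *Hif1a* allele. The Isl1-Cre allele is a knock-in that is active in cells that express or have expressed *Isl1*, and it was inherited from the father. The Ai14 reporter makes tdTomato after Cre has acted, and Prph-eGFP marks cells in which the peripherin promoter is active. The floxed mice had a mixed C57BL/6J and C57BL/6N background, and the Isl1Cre mice an FVB background. The series' general design text instead describes controls without Isl1-Cre, a genotype that would not give tdTomato-positive cells. In these bulk libraries, fewer cells of a type and less RNA per cell cannot be told apart.

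Total counts ranged from 8254211 to 9700887 per library. Of 12 markers of sympathetic neurons, all 12 passed the filter on low counts, with summed normalized counts of 94339 and 114190 in the controls and 81009 to 84922 in the *Hif1aCKO* libraries. Chromaffin cell markers (6 of 6 in the table, 4 tested) summed to 9207 and 11997 in the controls and 3739.9, 8459.9 and 4820.4 in the *Hif1aCKO* libraries. *Chgb* alone had 5514 and 8695 in the controls and 776, 4732 and 1106 in the *Hif1aCKO* libraries. Of the 4 tested, *Chgb* and *Pnmt* had log2 fold changes of -1.69 and -1.91, and *Chga* and *Slc18a1* of 0.008 and 0.012. *Hif1aCKO* replicate 3 stood apart in markers of Schwann cell precursors, the glial cells that accompany growing nerves. The 5 of 8 such markers in the table summed to 1199 normalized counts in that library and to 30.6 to 55.2 in the other 4, and *Cdh19* was at 0 in those 4. *Fabp7* made up 993 of the 1199. Mesenchyme markers (7 of 12 in the table, 2 tested), from tissue where *H19* and *Igf2* are typically abundant, summed to 35.2 and 172 in the controls and to 139 to 357 in the *Hif1aCKO* libraries, mostly from *Postn*, while raw counts of *Col1a1*, *Col1a2*, *Col3a1*, and *Pdgfrb* were at most 13 in any library. The fold change of each imprinted growth control gene is therefore also given without *Hif1aCKO* replicate 3, and the part that such cells have in any result was not tested. *Hif1a* itself had 2086 and 1584 normalized counts in the controls and 2747, 1757 and 2135 in the *Hif1aCKO* libraries, with a log2 fold change of 0.27 (SE 0.22, edgeR adjusted p = 0.800). The floxed segment is exon 2 alone, and counts over the whole gene do not check its removal. *Isl1*, the gene that carries Cre in both groups, had 12577 and 14019 normalized counts in controls and 8634, 7799.9 and 8722 in *Hif1aCKO*. All 3 *Hif1aCKO* values of *Isl1* lay below both controls, as for 12.9% of genes tested. The log2 fold change was -0.67, with an edgeR adjusted p of 0.446 and a DESeq2 adjusted p of 0.000214, so that DESeq2 called it and edgeR did not. *Prph* had a log2 fold change of 0.15 (edgeR adjusted p = 0.868).

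No imprinted growth control gene passed the thresholds of a call, which asked for a mean of 50 or more normalized counts, an adjusted p under 0.05, and an absolute log2 fold change over 0.3. Of the 10 genes, 9 passed the filter on low counts and were tested, and *Igf2* did not. The edgeR quasi-likelihood test called 0 of the 9, where it called 0% of all 15032 genes tested, and 0 of the 9 had an unadjusted p under 0.05, where 7.67% of all genes tested did (3.83% higher and 3.85% lower in *Hif1aCKO*). DESeq2, which called 0.388% of the genes with an adjusted p, called 0 of the 9, with adjusted p-values from 0.957 to 0.997, and the edgeR likelihood ratio test, which called 0.266%, also called 0. In none of the 9 did the *Hif1aCKO* libraries lie wholly above or below the controls, a separation that 25.7% of all genes tested showed. Without *Hif1aCKO* replicate 3, the groups did not overlap for 3 of the 9 (*Dlk1*, *Mest*, and *Plagl1*) and for 44.1% of all genes tested. Fold changes of *Hif1aCKO* over control were above 0 for 4 of the 9 and below 0 for 5, with a median of -0.02 on the log2 scale, beside 51.3% above 0, 48.7% below, and a median of 0.012 over all genes tested. The direction of *Dlk1* turned with upper-quartile scaling, which gives 5 above 0 and 4 below. The intervals leave room for changes of different size from gene to gene: for *Grb10* they span 0.883 to 1.30 times the control level, and for *H19* 0.204 to 4.26 times.

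**Figure D1:**
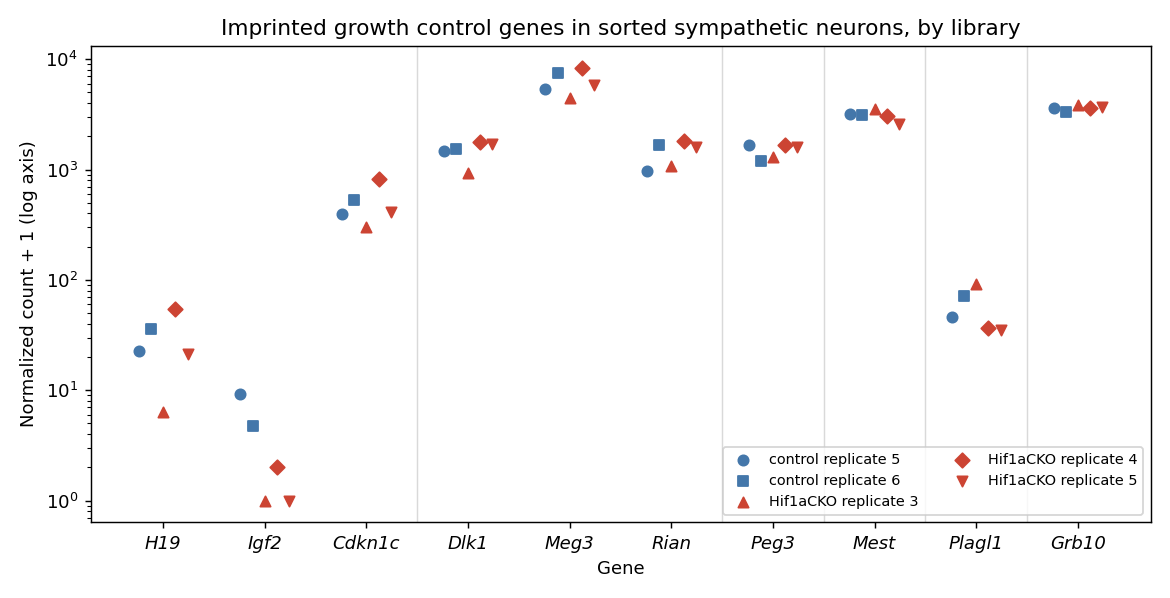
Normalized count plus 1 on a log axis for each of the 10 imprinted growth control genes in each library, with controls in blue and *Hif1aCKO* in red. The colours intermix for every gene but *Igf2*, whose control points lie above all 3 *Hif1aCKO* points at a few counts, and *H19* spans 10.1-fold between the *Hif1aCKO* libraries with the lowest and the highest value.

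The genes covered a wide range of levels. On a per-length scale, as counts per kilobase of exon scaled to library size (RPKM), *Mest* was highest with a mean over the 5 libraries of 89.4 (74.6 to 103), where the range over libraries is in brackets. *Grb10* followed with 45.4 (41.4 to 48.3), *Meg3* with 39.9 (28.1 to 53.1), *Dlk1* with 29.9 (18.9 to 36.0), and *Cdkn1c* with 27.5 (17.0 to 46.0). The levels of *Peg3* were 12.7 (10.2 to 14.3) and those of *Rian* 8.94 (6.13 to 11.3). At the low end stood *H19* with 1.27 (0.249 to 2.51), *Plagl1* with 0.808 (0.498 to 1.33), and *Igf2* with 0.0521 (0 to 0.166). The ranges of neighbours in this order overlapped except between *Mest* and *Grb10*, between *Cdkn1c* and *Peg3*, between *Rian* and *H19*, and between *Plagl1* and *Igf2*. With the longest transcript in place of all exon bases the order was the same except that *Rian* (20.2) stood above *Peg3* (19.5). Together the 10 genes took 0.189% and 0.210% of all counts in the controls and 0.176%, 0.250%, and 0.202% in the *Hif1aCKO* libraries.

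*Igf2* encodes insulin-like growth factor 2, a fetal growth factor, and lies at chr7:142650766-142666816 on the minus strand (GRCm38, ENSMUSG00000048583). Its raw counts were 8 and 4 in the controls and 0, 1, and 0 in the *Hif1aCKO* libraries. It was the only gene of the 10 whose groups did not overlap over all 5 libraries, beside 25.7% of the genes tested, at a level where 3 counts, the upper limit that a count of 0 allows, equal 0.309 to 0.363 CPM. The summed counts of 12 and 1 give, scaled to library size, a ratio of control to *Hif1aCKO* of 17.4 (exact 95% interval 2.58 to 745), an interval that covers counting error only and not the spread between embryos. Fitted without the filter on low counts, the log2 fold change was -3.74 (SE 1.74) with an edgeR unadjusted p of 0.0615 and an adjusted p of 0.723. DESeq2 gave an unadjusted p of 0.173 and no adjusted p. Of the exon bases of *Igf2*, 62.8% are shared with *Gm49394* on the same strand, and reads over several genes were left out of the counts, so its count is uncertain. Here and below, shared exon bases are those of GENCODE M21, while the study states an earlier release, so the overlap that the counting met may differ.

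*H19*, a non-coding RNA and the precursor of miR-675, is the maternally expressed partner of *Igf2* and lies 72.6 kb away at chr7:142575529-142578143, also on the minus strand (ENSMUSG00000000031). It had 21.9 and 35.2 normalized counts in the controls and 5.36, 53.9 and 20.4 in the *Hif1aCKO* libraries. The lowest and the highest of the 5 values were both in the *Hif1aCKO* group, in replicates 3 and 4, and the controls lay between them. The mean was 28.6 ± 9.46 in controls (SD, n = 2) and 26.6 ± 24.9 in *Hif1aCKO* (SD, n = 3), with a log2 fold change of -0.10 (SE 0.95, 95% confidence interval -2.30 to 2.09) and an edgeR adjusted p of 0.988. Without *Hif1aCKO* replicate 3 the log2 fold change was 0.38 (SE 0.79), and without *Hif1aCKO* replicate 4 it was -1.14 (SE 0.96). The spread of *H19* within groups, 1.35 as an SD on the log2 scale, was the widest of the 9 genes tested, and 11.2% of all genes tested had a wider one.

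RefSeq places 15 mature microRNAs inside these genes, and these libraries did not measure their mature forms. Of the 15, 5 lie within exons of *H19* and *Meg3* in GENCODE M21, while the 10 at *Igf2*, *Mest*, and *Rian* lie outside the exons of those genes. Exons here are those of all annotated transcripts of a gene, and whether the main spliced RNA holds these microRNAs was not examined. The 5 within exons are shown from 5′ to 3′ with the seed (bases 2 to 8) in capitals:
mmu-miR-675-5p (*H19*): uGGUGCGGaaagggcccacagu
mmu-miR-675-3p (*H19*): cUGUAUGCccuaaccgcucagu
mmu-miR-1906 (*Meg3*): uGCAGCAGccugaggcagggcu
mmu-miR-770-5p (*Meg3*): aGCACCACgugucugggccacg
mmu-miR-770-3p (*Meg3*): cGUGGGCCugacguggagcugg
No seed is shared among these 5 sequences.

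*Cdkn1c* encodes p57, an inhibitor of cyclin-dependent kinases that restrains proliferation, and lies at chr7:143458339-143461050 on the minus strand (ENSMUSG00000037664), 162 kb from the imprinted antisense RNA gene *Kcnq1ot1*. Controls had 393 and 526 normalized counts and *Hif1aCKO* libraries 303, 821 and 414. As with *H19*, *Hif1aCKO* replicate 3 was lowest and replicate 4 highest, so that the controls fell inside the *Hif1aCKO* range. The mean was 459 ± 94.2 in controls (SD, n = 2) and 513 ± 273 in *Hif1aCKO* (SD, n = 3), a log2 fold change of 0.16 (SE 0.39, 95% confidence interval -0.75 to 1.07) with an edgeR adjusted p of 0.954. It was 0.43 (SE 0.35) without *Hif1aCKO* replicate 3 and -0.36 (SE 0.26) without *Hif1aCKO* replicate 4, so the direction rested on single libraries. Of its exon bases, 30.6% overlap the antisense gene *Gm44732*, and reads over both genes were left out of the counts. Proliferation markers (8 of 8 tested) summed to 17952 and 15955 normalized counts in controls and 20916 to 23422 in *Hif1aCKO*. In 5 of the 8 every *Hif1aCKO* library lay above both controls, beside 12.9% of all genes tested. DESeq2, which called 0.388% of genes with an adjusted p, called *Mki67* and *Ccnb1*. The edgeR quasi-likelihood test called neither (adjusted p of 0.567 and 0.586). *Pcna*, *Mcm2*, and *Mcm5* of the same list had log2 fold changes of -0.02, -0.11, and 0.02. The proliferation sum was highest in *Hif1aCKO* replicate 4, as *Cdkn1c* was. In *Hif1aCKO* replicate 3 the sum (20916) lay above both controls, while *Cdkn1c* (303) was at its lowest. Control replicate 6 had the lowest sum (15955), with 526 normalized counts of *Cdkn1c*. The part of proliferation in the *Cdkn1c* values was not tested. Counts of *Kcnq1ot1* were 1912 and 1887 in controls and 1582, 3413 and 2362 in *Hif1aCKO* (normalized counts, edgeR adjusted p = 0.783).

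*Dlk1*, *Meg3*, and *Rian* lie in this order on the plus strand of chromosome 12. *Dlk1* encodes a transmembrane protein related to the Notch ligands (chr12:109452823-109463336, ENSMUSG00000040856), *Meg3* a long non-coding RNA (chr12:109541001-109571726, ENSMUSG00000021268), and *Rian* a non-coding RNA that hosts small nucleolar RNAs (chr12:109603940-109661716, ENSMUSG00000097451). The gap between genes is 77.7 kb from *Dlk1* to *Meg3* and 32.2 kb from *Meg3* to *Rian*. The windows from 250 bases before to 50 bases after the RefSeq start (GRCm38.p6, gene strand, 5′ to 3′) are shown for *Dlk1* and for the more upstream start of *Meg3*, at chr12:109452573-109452872 and chr12:109540746-109541045, because the genes are expressed from opposite alleles of the same cluster. Capitals mark ACGTG or GCGTG on either strand, the core letters of HIF-1 binding motifs, which capitals on the other strand show as CACGT or CACGC:
Dlk1: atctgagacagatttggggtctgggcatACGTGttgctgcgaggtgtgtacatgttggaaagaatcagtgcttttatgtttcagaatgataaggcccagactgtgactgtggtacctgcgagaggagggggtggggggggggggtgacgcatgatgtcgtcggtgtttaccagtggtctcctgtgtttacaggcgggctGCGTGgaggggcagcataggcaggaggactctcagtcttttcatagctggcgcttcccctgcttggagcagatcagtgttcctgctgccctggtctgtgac
Meg3: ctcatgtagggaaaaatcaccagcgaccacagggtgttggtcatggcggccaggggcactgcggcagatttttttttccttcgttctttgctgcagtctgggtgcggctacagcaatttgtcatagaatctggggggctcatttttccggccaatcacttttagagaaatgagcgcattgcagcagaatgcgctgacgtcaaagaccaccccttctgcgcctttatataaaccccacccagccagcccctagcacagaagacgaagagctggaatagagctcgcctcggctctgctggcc
The *Dlk1* window holds each core once and the *Meg3* window neither. Among 32851 RefSeq windows of this length, 19.6% hold ACGTG, 32.4% GCGTG, and 43.8% either, and a match describes letters only.

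The level of *Dlk1* was 1460.3 and 1529 normalized counts in the controls and 933, 1782 and 1703 in the *Hif1aCKO* libraries. *Hif1aCKO* replicate 3 was the lowest of all 5, and the other *Hif1aCKO* libraries stood above both controls. Means were 1495 ± 48.9 in controls (SD, n = 2) and 1473 ± 469 in *Hif1aCKO* (SD, n = 3), with a log2 fold change of -0.02 (SE 0.27, 95% confidence interval -0.63 to 0.59) and an edgeR adjusted p of 0.993. Without *Hif1aCKO* replicate 3 the log2 fold change was 0.22 (SE 0.14) with an edgeR adjusted p of 0.589. It was -0.18 (SE 0.27) without *Hif1aCKO* replicate 4 and -0.14 (SE 0.30) without replicate 5, so its direction changed with the library left out.

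*Meg3* had 5367 and 7481 normalized counts in the controls and 4448, 8399 and 5847 in the *Hif1aCKO* libraries. Both ends of the range were again *Hif1aCKO* libraries, replicate 3 at the bottom and replicate 4 at the top. Its log2 fold change was -0.04 (SE 0.26, 95% confidence interval -0.63 to 0.54) with an edgeR adjusted p of 0.984. It was 0.15 (SE 0.22) without *Hif1aCKO* replicate 3 and -0.32 (SE 0.20) without *Hif1aCKO* replicate 4. For *Rian*, the counts were 977 and 1684 in controls and 1079, 1795 and 1595 in *Hif1aCKO*, with control replicate 5 lowest and *Hif1aCKO* replicate 4 highest. The log2 fold change of *Rian* was 0.16 (SE 0.28, 95% confidence interval -0.49 to 0.81), with an edgeR adjusted p of 0.932, and 0.35 (SE 0.26) without *Hif1aCKO* replicate 3.

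Ratios within a library varied less between libraries than the levels did. The ratio of *Meg3* to *Dlk1* counts was 3.68 and 4.89 in the controls and 4.77, 4.71, and 3.43 in the *Hif1aCKO* libraries, which overlapped and differed in their group means by 0.0057 on the log2 scale. That of *Rian* to *Meg3* was 0.182 and 0.225 in controls and 0.243, 0.214, and 0.273 in *Hif1aCKO*, again overlapping, with a difference of 0.26. *Mirg*, the microRNA host gene 68.0 kb beyond *Rian*, had 0.0165 and 0.0181 counts per *Meg3* count in controls and 0.0116, 0.0203, and 0.0186 in *Hif1aCKO*.

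*Peg3* encodes a zinc finger protein and lies at chr7:6703892-6730431 on the minus strand (ENSMUSG00000002265), 0.147 kb from *Usp29*, which is transcribed away from it and is also expressed from the paternal allele. The window around the *Peg3* start, chr7:6730370-6730669, also reaches the annotated start of *Usp29* and is shown for that reason (RefSeq, GRCm38.p6, strand of *Peg3*, with GCGTG in capitals):
Peg3: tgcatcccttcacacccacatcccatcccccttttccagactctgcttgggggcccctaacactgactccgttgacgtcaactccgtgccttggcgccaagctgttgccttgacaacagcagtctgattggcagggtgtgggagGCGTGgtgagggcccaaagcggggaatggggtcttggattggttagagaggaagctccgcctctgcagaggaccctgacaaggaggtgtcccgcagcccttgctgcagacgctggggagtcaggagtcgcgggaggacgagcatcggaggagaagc
*Peg3* had 1653 and 1194 normalized counts in the controls, which enclosed the 1308, 1664 and 1588 of the *Hif1aCKO* libraries except for replicate 4. Its log2 fold change was 0.10 (SE 0.19, 95% confidence interval -0.35 to 0.54) with an edgeR adjusted p of 0.947, and 0.19 (SE 0.19) without *Hif1aCKO* replicate 3. *Usp29* had 368 and 372 normalized counts in controls and 465, 548 and 568 in *Hif1aCKO*, all above both controls, as 12.9% of genes tested were. Its log2 fold change of 0.51 (SE 0.20, 95% confidence interval 0.06 to 0.96) had an unadjusted edgeR p of 0.0308 and an adjusted p of 0.621, which misses the threshold. The difference between the fold changes of *Peg3* and *Usp29* was not tested.

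*Plagl1*, which encodes a zinc finger transcription factor (chr10:13060504-13131694, plus strand, ENSMUSG00000019817), had 44.8 and 70.5 normalized counts in controls and 91.1, 35.9 and 34.1 in *Hif1aCKO*. Here *Hif1aCKO* replicate 3 was highest and the other *Hif1aCKO* libraries lowest, with the controls between. The log2 fold change was -0.10 (SE 0.61, 95% confidence interval -1.50 to 1.29) with an edgeR adjusted p of 0.984. It was -0.72 (SE 0.61) without *Hif1aCKO* replicate 3, with an edgeR adjusted p of 0.694, the largest move that leaving out that library made among the 9 genes.

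*Mest* and *Grb10* varied little between libraries. *Mest*, which encodes a protein of the alpha/beta hydrolase fold (chr6:30723547-30748465, plus strand, ENSMUSG00000051855), had 3166 and 3097 normalized counts in controls and 3547, 3045 and 2573 in *Hif1aCKO*. The controls were nearly equal and lay within the *Hif1aCKO* range. Its log2 fold change was -0.04 (SE 0.16, 95% confidence interval -0.40 to 0.33) with an edgeR adjusted p of 0.975, and -0.16 (SE 0.14) without *Hif1aCKO* replicate 3. *Copg2*, which overlaps 23.1% of the exon bases of *Mest* on the opposite strand, stood at 0.442 to 0.474 counts per *Mest* count in all 5 libraries, and reads over both genes were left out of the counts.

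*Grb10* encodes an adaptor that binds the insulin and IGF1 receptors and dampens their signalling (chr11:11930508-12038683, minus strand, ENSMUSG00000020176). It had 3634 and 3294 normalized counts in controls and 3841, 3589 and 3697 in *Hif1aCKO*. Control replicate 6 was lowest, and control replicate 5 lay within the *Hif1aCKO* values. Its log2 fold change of 0.10 (SE 0.12, 95% confidence interval -0.18 to 0.38), with an edgeR adjusted p of 0.889, was 0.07 (SE 0.12) without *Hif1aCKO* replicate 3. The within-group SD of 0.07 on the log2 scale was narrower than in 97.7% of all genes tested, against 78.4% for *Mest*. The window at the upstream *Grb10* start, chr11:12037371-12037670, holds 45 CpG pairs, where the median over all RefSeq windows is 7, and it is shown for that density (capitals mark the reverse complement of GCGTG):
Grb10: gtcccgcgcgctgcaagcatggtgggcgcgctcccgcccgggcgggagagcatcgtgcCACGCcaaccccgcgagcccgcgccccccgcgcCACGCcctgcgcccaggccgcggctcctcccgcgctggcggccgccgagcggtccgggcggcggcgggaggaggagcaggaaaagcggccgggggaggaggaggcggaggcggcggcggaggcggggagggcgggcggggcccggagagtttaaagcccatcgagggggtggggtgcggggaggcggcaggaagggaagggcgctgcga
Of the 10 genes, 8 had RefSeq windows, 15 in all, and 5 of the 15 held ACGTG or GCGTG. *H19* and *Cdkn1c* had no entry.

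**Figure D2:**
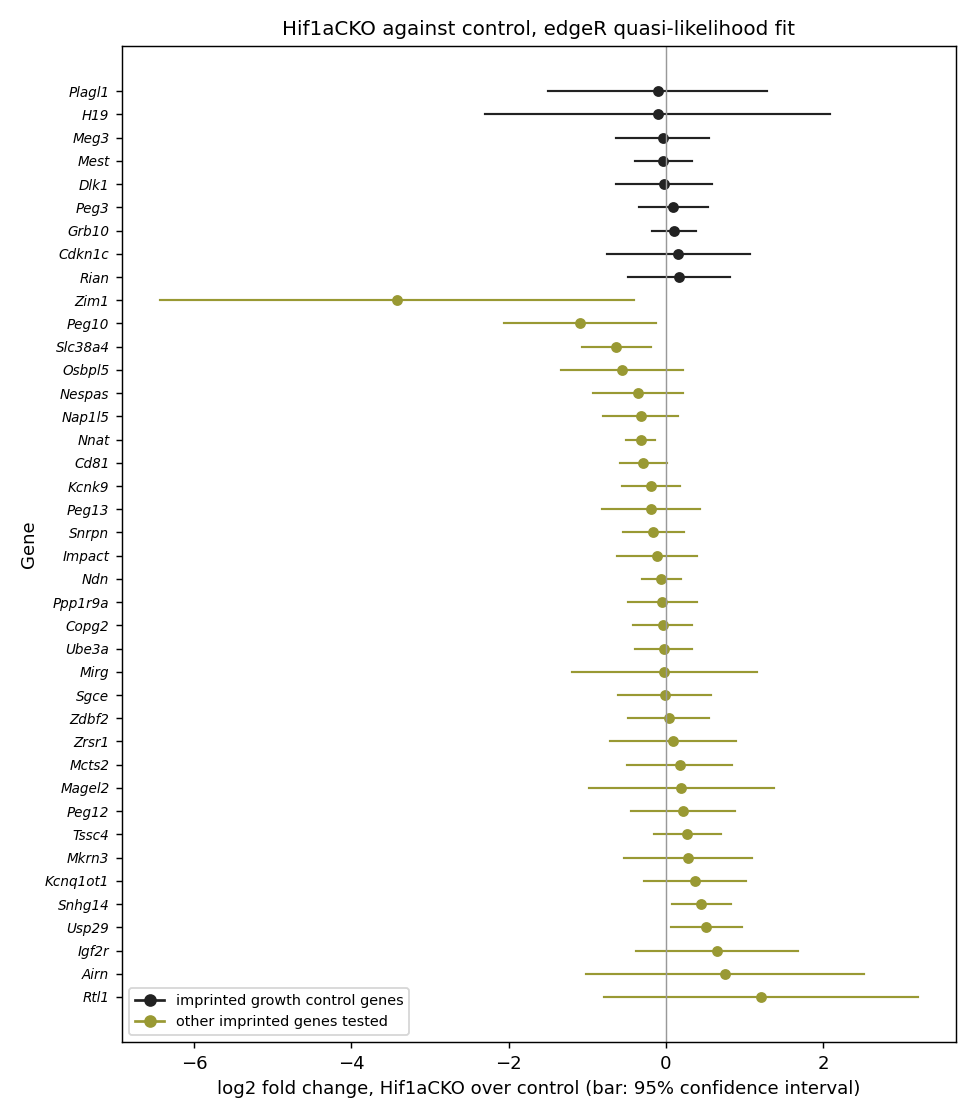
Log2 fold change of *Hif1aCKO* over control with its 95% confidence interval from the edgeR quasi-likelihood fit, for the 9 imprinted growth control genes tested (black) and the other imprinted genes tested (olive), each sorted by fold change. All black intervals cross 0, and those of *Grb10* and *Mest* are the narrowest of the 9, while *H19* has the widest.

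The deviation of each library from the mean of all 5 showed which libraries set the extremes. *Hif1aCKO* replicate 4 was highest for 6 of the 9 genes tested (*H19*, *Cdkn1c*, *Dlk1*, *Meg3*, *Rian*, and *Peg3*), where it was highest for 24.05% of all genes tested. *Hif1aCKO* replicate 3 was highest for the other 3, with 16.3% over all genes tested, and lowest for *H19*, *Cdkn1c*, *Dlk1*, and *Meg3*, with 16.6%. Of the 9 imprinted non-coding genes tested in all lists, *H19*, *Meg3*, *Rian*, *Mirg*, *Airn*, and *Kcnq1ot1* were highest in *Hif1aCKO* replicate 4. Of the 31 imprinted genes tested outside the 9, 4 were highest in that library, 9 in control replicate 6, 7 in *Hif1aCKO* replicate 5, 6 in *Hif1aCKO* replicate 3, and 5 in control replicate 5. Among 5 imprinted genes of chromosome 12 tested, 4 were highest in that library, and *Rtl1* was not. Across genes of any kind, 26.9% of 1487 long non-coding genes were highest in *Hif1aCKO* replicate 4, as were 22.9% of 12261 protein-coding genes. The nuclear RNA *Malat1*, chosen after its values were seen, had 63492 and 66129 normalized counts in controls and 50339, 124288 and 94378 in *Hif1aCKO*, also highest in replicate 4 and lowest in replicate 3. Other long non-coding RNAs read beside it differed. *Neat1* was highest in *Hif1aCKO* replicate 4 (39.9) but lowest in control replicate 6 (6.49). *Miat* was highest in *Hif1aCKO* replicate 5 (337) and *Snhg11* in control replicate 5 (765), both lowest in *Hif1aCKO* replicate 3 (136 and 321). Whether nuclear RNA content or other cells in the sort have a part in these library differences was not tested.

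**Figure D3:**
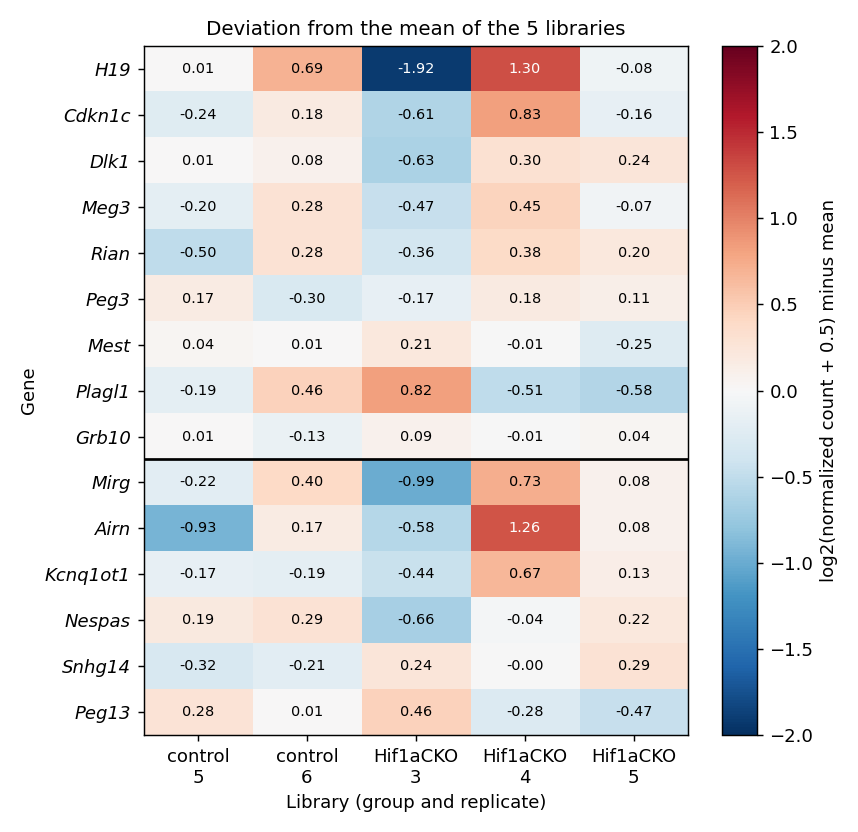
Deviation of log2(normalized count + 0.5) in each library (columns) from the mean of the 5 libraries, for the 9 imprinted growth control genes tested (above the line) and 6 other imprinted non-coding genes (below), with red above and blue below the mean. The column of *Hif1aCKO* replicate 4 is red and that of replicate 3 blue for *H19* (1.30 and -1.92), *Cdkn1c* (0.83 and -0.61), *Dlk1* (0.30 and -0.63), and *Meg3* (0.45 and -0.47), so both ends of the range of those genes are *Hif1aCKO* libraries.

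Genes next to the imprinted loci were read as a comparison, from a list of 17 neighbours of which 13 were tested. Of these, 5 had a fold change above 0 and 8 below, with a median of -0.06 on the log2 scale, and 0 were called by the edgeR quasi-likelihood test, with 2 at an unadjusted p under 0.05 (7.67% over all genes tested) and 0 called by DESeq2. *Th*, which encodes the rate-limiting enzyme of catecholamine synthesis and lies 226 kb from *Igf2*, had 2998 and 6985 normalized counts in controls and 1682, 1515 and 2582 in *Hif1aCKO*. All 3 *Hif1aCKO* values lay below both controls, as for 12.9% of genes tested, with a log2 fold change of -1.37 (SE 0.35, 95% confidence interval -2.17 to -0.58), an unadjusted edgeR p of 0.00404, and an adjusted p of 0.586. *Cep41*, a centrosomal protein gene 29.8 kb from *Mest*, had 321 and 245 in controls and 123, 94.9 and 173 in *Hif1aCKO*, with a log2 fold change of -1.11, an unadjusted edgeR p of 0.00951, and an adjusted p of 0.598. *Ddc*, the next enzyme of catecholamine synthesis and 32.4 kb from *Grb10*, had 4110.1 and 5327 in controls and 3917, 4028 and 3826 in *Hif1aCKO*, with a log2 fold change of -0.27 and an edgeR adjusted p of 0.699. *Nap1l4*, near *Cdkn1c*, had a log2 fold change of -0.15 (edgeR adjusted p = 0.842). Whether these neighbours differ in fold change from *H19*, *Mest*, or *Grb10* was not tested.

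Other imprinted genes were described in the same way. Of 27 paternally expressed genes listed, 21 were tested, 11 with a fold change above 0 and 10 below (median 0.03), and of 20 maternally expressed genes 10 were tested, 2 above 0 and 8 below (median -0.04). The edgeR quasi-likelihood test and DESeq2 called 0 in either list, and 5 paternally and 1 maternally expressed gene had an unadjusted p under 0.05, beside 7.67% of all genes tested. The groups did not overlap for 6 of the 21 paternally and 5 of the 10 maternally expressed genes, beside 25.7% of all genes tested. *Nnat*, a neuronal membrane protein gene, had 25684 and 27006 normalized counts in controls and 20599.6, 20607 and 22154 in *Hif1aCKO*, with a log2 fold change of -0.32, an unadjusted edgeR p of 0.00399, and an adjusted p of 0.586. *Slc38a4*, an amino acid transporter gene, had 7263 and 5281 in controls and 4914, 3422 and 3803 in *Hif1aCKO*, with a log2 fold change of -0.63 and an edgeR adjusted p of 0.598. The remaining genes with an unadjusted p under 0.05 were *Peg10* (-1.09), *Usp29*, *Snhg14* (0.45), and *Zim1*, whose raw counts were at most 19. Among the genes with the highest counts, *Ndn*, *Ube3a*, *Cd81*, and *Copg2* had log2 fold changes of -0.06, -0.03, -0.29, and -0.04, none past the threshold.

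Genes of insulin and IGF receptors, of IGF binding proteins, and of docking proteins below the receptors were described from 1 list. Of its 14 genes of IGF binding, reception, and *Igf2* mRNA binding, 12 were tested, 7 above 0 and 5 below (median 0.03), with 0 called by the edgeR quasi-likelihood test and 2 at an unadjusted p under 0.05 (7.67% over all genes tested). *Irs1*, the docking protein below the insulin and IGF1 receptors, had 365 and 593 normalized counts in controls and 173, 179 and 138 in *Hif1aCKO*. All 3 *Hif1aCKO* values of *Irs1* lay below both controls, as for 12.9% of genes tested. Its log2 fold change was -1.55 (SE 0.28, 95% confidence interval -2.20 to -0.91) with an edgeR adjusted p of 0.521, and it was the 1 gene of the list that DESeq2 called (adjusted p = 0.00184, with 0.388% called over all genes with an adjusted p). *Insr*, the insulin receptor gene, had 197 and 252 in controls and 325, 519 and 284 in *Hif1aCKO*, with a log2 fold change of 0.74, an unadjusted edgeR p of 0.0467, and an adjusted p of 0.647. *Igf1r*, which encodes the receptor that IGF2 shares with IGF1, had a log2 fold change of 0.21 and *Igf2bp1* and *Igf2bp3*, RNA-binding proteins named for *Igf2* mRNA, had 0.03 and 0.19, with edgeR adjusted p-values of 0.869, 0.985, and 0.777.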

How the data were processed

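RNA-seq was performed on 2 control and 3 *Hif1aCKO* biological samples, in libraries made with a single-cell low-input kit. The authors trimmed reads with cutadapt (version 1.18) and Trimmomatic, removed ribosomal and other unwanted reads with bowtie (version 1.2.2) and SortMeRNA, mapped the rest to GRCm38 with STAR (version 2.7.0c), and counted them per gene with Rsubread at its default settings, which do not use strand and leave out reads over several genes. Versions are those of the submitters' processing notes. The deposited values are raw counts, with no normalization, and were used as deposited. Names and positions came from GENCODE M21 (GRCm38), where 20195 of the 20224 identifiers were found, and sequences from RefSeq.

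Counts were tested in edgeR (version 4.0.16, R version 4.3.3) with TMM factors, filterByExpr, and the quasi-likelihood test, with genotype as the only term and Benjamini-Hochberg adjustment over 15032 genes. Normalized counts are counts divided by the effective library size (TMM factors 0.974 to 1.03) and multiplied by its mean. SDs on the log2 scale used log2(normalized count + 0.5). Alternatives were DESeq2 (version 1.42.0), the edgeR likelihood ratio test, limma-voom (limma version 3.58.1), RLE and upper-quartile scaling, other low-count filters, other thresholds, and leaving out each library. The fit was tested on simulated data. The 5 libraries allow 10 splits, so that 0.1 is the smallest p an exact permutation test of 1 gene can give. Python 3.11.15 was used with matplotlib 3.10.9, numpy 2.4.6, and pandas 2.3.3 for other steps.

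The genes and lists were chosen with earlier results of these data known. Named were *Hif1a*, *Isl1*, *Prph*, the 10 members, *Th*, *Ddc*, and, of each other list, genes with an unadjusted p under 0.05 and the 3 with the highest mean count. *Malat1*, *Neat1*, *Miat*, *Snhg11*, *Kcnq1ot1*, *Mirg*, *Airn*, *Rtl1*, *Notch1*, *Notch2*, *Jag1*, *Dll1*, *Dll3*, and markers named from the cell type lists were added after values were seen. No batch is given in the labels.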

Additional observations from a re-analysis of the deposited data

How the results depend on the processing

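The edgeR quasi-likelihood test called 0 of 15032 genes, while 60 were called by DESeq2, 40 by the likelihood ratio test, and 1153 at an unadjusted p under 0.05 (the last without the other thresholds). Leaving out 1 library in turn gave 0 to 4 called genes, the 4 without control replicate 5. The number of imprinted growth control genes called was 0 under every alternative run, leaving out a library included (0 to 0). Upper-quartile scaling turned *Dlk1* to 0.019 on the log2 scale and moved the median of all genes tested to 0.047. Over the fits that left out a library, log2 fold changes ranged from -1.14 to 0.38 for *H19*, -0.18 to 0.22 for *Dlk1*, -0.32 to 0.21 for *Meg3*, -0.18 to 0.60 for *Rian*, -0.13 to 0.35 for *Peg3*, -0.36 to 0.43 for *Cdkn1c*, -0.16 to 0.075 for *Mest*, and -0.72 to 0.26 for *Plagl1*, all changing sign, and from 0.024 to 0.17 for *Grb10*, which did not. The cause was not tested. Where 1 control library was left, it was assumed to vary like the others. With at least 10 counts required in every library, *H19* dropped out. No paired analysis was possible because the groups share only replicate number 5. Depth limits *Igf2* most, with 12 counts in the controls and 1 in *Hif1aCKO*.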

Other observations

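Genes of the pathways that DLK1 and p57 belong to were also measured. DLK1 is related to the ligands of Notch receptors, and of 14 genes of that pathway 8 were tested, 6 with a log2 fold change above 0 and 2 below, and a median of 0.52, beside 0.012 over all genes tested. Genes with low counts weigh on this median. *Notch1*, *Notch2*, *Jag1*, and *Dll3* had mean normalized counts of 14.3 to 36.3 and SEs of 0.67 to 0.94. *Dll1* (1.39, SE 0.63) had 161 in *Hif1aCKO* replicate 4 and 54.7 and 56.4 in replicates 3 and 5. The edgeR quasi-likelihood test and DESeq2 called 0 of the 8, and 0 had an unadjusted p under 0.05. In 3 of the 8 every *Hif1aCKO* library lay above both controls, where 12.9% of all genes tested did so. *Jag2*, a Notch ligand gene, had 158 and 138 normalized counts in controls and 177, 218 and 168 in *Hif1aCKO* (log2 fold change 0.34, edgeR adjusted p = 0.816). *Rbpj*, the DNA-binding partner of activated Notch, had 359 and 401 in controls and 324, 378 and 414 in *Hif1aCKO* (-0.03), and the target gene *Hey1* had 97.9 and 197 in controls and 120.1, 31.0 and 85.6 in *Hif1aCKO* (-0.90, edgeR adjusted p = 0.735).

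Of 6 other inhibitors of cyclin-dependent kinases, the family that p57 belongs to, 4 were tested, 3 above 0 and 1 below, with a median of 0.07 and 0 called by the edgeR quasi-likelihood test, by DESeq2, or at an unadjusted p under 0.05. *Cdkn1a*, which encodes p21, had 441 and 329 normalized counts in controls and 545, 665 and 423 in *Hif1aCKO*, and its groups overlapped (log2 fold change 0.50 (SE 0.25, 95% confidence interval -0.08 to 1.08), edgeR adjusted p = 0.698). *Cdkn1b* had 357 and 279 in controls and 369.9, 351 and 296 in *Hif1aCKO*, and *Cdkn2d* had 1830.1 and 1757 in controls and 1980.4, 1668 and 1917 in *Hif1aCKO*, with log2 fold changes of 0.09 and 0.05.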
